A study of Mus musculus with 8 samples.

Results

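The 36 genes described here make up the enzymatic defence against oxidants and metals: the transcription factor NRF2 and its partners, the glutathione and thioredoxin systems, peroxiredoxins, glutathione peroxidases and transferases, superoxide dismutases, catalase, metallothioneins and the ferritin heavy chain. They were chosen by gene symbol, and all 36 were found among the 24346 symbols of each library. Stromal cells of the large intestine (podoplanin-positive, negative for CD45, CD31, EpCAM and the dead-cell dye 7AAD) were sorted from 8 mice aged 12 weeks, and full-length cDNA was sequenced. The 4 cKO mice had the genotype Pdgfra cre; Il10ra flox/flox, in which Cre made under the control of Pdgfra, a receptor gene typical of fibroblasts, acts on floxed Il10ra, the gene for the receptor chain that binds interleukin-10. The 4 WT mice had the genotype Il10ra flox/flox, so both groups carried the floxed alleles and the controls had no Cre. Per its title, the study asks how interleukin-10 sensing by fibroblasts bears on interferon signalling and disease of the large bowel.

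NRF2, encoded by Nfe2l2, is held low by KEAP1, which marks it for degradation, and is released when oxidants or electrophiles modify KEAP1. It then binds antioxidant response elements in the promoters of genes for glutathione synthesis, thioredoxin reduction, heme breakdown and NADPH supply. Its activity is set largely at the protein level, so that the transcripts of its target genes, more than its own transcript, follow it. Metallothioneins bind zinc and copper and are induced through metal response elements by the factor MTF1.

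The libraries carried the transcripts of fibroblasts, with Pdpn at 84.8 to 92.4 FPKM in cKO and 90.4 to 94.7 FPKM in WT libraries (FPKM is a fragment count scaled by transcript length and library size), Pdgfra at 126 to 167 FPKM in cKO and 157 to 161 FPKM in WT, and Dcn, which encodes decorin, at 6710 to 7345 FPKM in cKO and 6691 to 7360 FPKM in WT. Il10ra had 0.439, 0.273, 0.633 and 0.636 FPKM in cKO replicates 1 to 4 and 0.842, 0.665, 0.614 and 0.403 FPKM in WT replicates 1 to 4. The groups overlapped, and the labels leave out which part of the gene is floxed, so this does not check the genotypes. The 15 epithelial markers listed summed to 1106, 560.2, 145 and 52.0 FPKM in cKO replicates 1 to 4 and to 65.1 to 143 FPKM in WT, none of them at 0 in every library. Lymphoid and plasma markers summed to 39.7 to 180 FPKM in cKO and 52.9 to 93.8 FPKM in WT, smooth muscle markers to at most 84.4 FPKM in cKO and 57.8 FPKM in WT, endothelial markers to 4.75 to 11.01 FPKM in cKO and 3.03 to 5.09 FPKM in WT, and glial markers to 1.51 to 2.28 FPKM in cKO and 0.659 to 1.56 FPKM in WT. cKO replicate 1 thus stands apart, and results that rest on it are given with and without it. No 2 libraries held identical values, and correlations of log2 values between libraries ran from 0.965 to 0.989. The design text counts 4 mice in each group. FPKM files give no fragment counts. Steps between the lowest values put the depth of the other libraries at 0.868 to 1.10 times that of WT replicate 1, with 32.3% to 41.9% of 1157 low genes on a shared step.

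Promoter sequences are shown for 5 genes picked because their windows hold a motif match, namely the metallothionein genes Mt1 and Mt2, the thioredoxin-system genes Srxn1 and Txnrd1, and Gclm, a glutathione synthesis gene known as an NRF2 target. Gstm2, the member with the smallest unadjusted p, is shown beside them as a window without a match. Each window runs from 250 bases before to 50 bases after the transcript start in RefSeq (GRCm38.p6), 5′ to 3′ on the gene's strand. Capitals mark matches on either strand to the core of the antioxidant response element (TGACNNNGC) or of the metal response element (TGCACNC or TGCGCNC). Only these letters were searched, so variants of either core, such as tgagtcagc before the start in the Srxn1 window, are neither marked nor counted. The windows are those of Mt1 (chr8:94178839-94179138, plus strand), Mt2 (chr8:94172368-94172667, plus strand), Srxn1 (chr2:152105274-152105573, plus strand), Txnrd1 (chr10:82858956-82859255, plus strand, 1 of 3 listed starts and the one with a match), Gclm (chr3:122245307-122245606, plus strand) and Gstm2 (chr3:107986371-107986670, minus strand).
Mt1: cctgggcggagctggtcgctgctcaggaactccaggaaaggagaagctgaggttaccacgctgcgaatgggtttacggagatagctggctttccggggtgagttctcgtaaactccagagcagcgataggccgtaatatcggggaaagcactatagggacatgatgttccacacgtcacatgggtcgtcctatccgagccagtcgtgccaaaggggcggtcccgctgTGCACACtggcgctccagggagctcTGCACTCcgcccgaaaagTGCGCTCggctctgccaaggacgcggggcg
Mt2: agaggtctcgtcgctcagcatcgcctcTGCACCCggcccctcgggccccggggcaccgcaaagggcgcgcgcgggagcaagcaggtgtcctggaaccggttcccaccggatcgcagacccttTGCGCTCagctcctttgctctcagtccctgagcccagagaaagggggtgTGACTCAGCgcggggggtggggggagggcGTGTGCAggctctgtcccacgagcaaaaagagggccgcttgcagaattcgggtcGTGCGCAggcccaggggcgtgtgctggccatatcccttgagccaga
Srxn1: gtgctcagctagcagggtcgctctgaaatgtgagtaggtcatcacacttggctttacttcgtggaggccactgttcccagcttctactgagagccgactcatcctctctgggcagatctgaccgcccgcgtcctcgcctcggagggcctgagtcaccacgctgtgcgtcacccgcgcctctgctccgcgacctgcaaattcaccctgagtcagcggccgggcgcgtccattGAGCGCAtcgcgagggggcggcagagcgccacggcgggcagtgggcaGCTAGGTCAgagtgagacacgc
Txnrd1: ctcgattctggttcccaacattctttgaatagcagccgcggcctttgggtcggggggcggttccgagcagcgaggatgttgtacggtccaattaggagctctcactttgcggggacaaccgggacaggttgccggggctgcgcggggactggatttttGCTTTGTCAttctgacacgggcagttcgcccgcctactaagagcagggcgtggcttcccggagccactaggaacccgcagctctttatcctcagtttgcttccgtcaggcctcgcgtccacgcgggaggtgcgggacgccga
Gclm: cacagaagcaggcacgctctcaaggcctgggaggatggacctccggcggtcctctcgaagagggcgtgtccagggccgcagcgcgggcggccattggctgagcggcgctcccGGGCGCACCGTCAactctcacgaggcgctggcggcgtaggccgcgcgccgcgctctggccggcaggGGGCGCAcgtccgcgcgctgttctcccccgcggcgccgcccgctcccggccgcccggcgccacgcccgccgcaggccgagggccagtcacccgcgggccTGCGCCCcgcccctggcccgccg
Gstm2: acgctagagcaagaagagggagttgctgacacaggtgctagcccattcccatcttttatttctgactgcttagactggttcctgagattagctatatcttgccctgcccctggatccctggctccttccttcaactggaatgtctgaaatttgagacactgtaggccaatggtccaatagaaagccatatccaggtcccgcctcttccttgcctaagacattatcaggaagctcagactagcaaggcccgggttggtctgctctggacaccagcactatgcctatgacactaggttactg
Mt2 held 4 matches to the metal response element and 1 to the antioxidant response element, which begins 79 bases before the start. Mt1 held 3 matches to the metal response element. Srxn1 held 1 antioxidant match, 28 bases after the start, and 1 metal match. Txnrd1 held 1 antioxidant match, 92 bases before the start. Gclm held 1 antioxidant and 3 metal matches, and 3 bases belong to both kinds. Promoter windows matched 30 of the 36 genes, and 8 of these 30 had an antioxidant match and 8 a metal match. Counted by window, since some genes have several starts, 8 of their 37 windows held the antioxidant core and 9 of 37 the metal core. Gpx4, with 4 windows, had no match in any. Over all 32851 windows of the same length, 12.4% held the antioxidant core and 25.7% the metal core, and 0.517% held 4 or more matches to the metal core. Hmox1, Gclc, Gsr, Gsta4, Prdx6 and Sod3 are named only.

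These genes were abundant in the sorted stroma. Of the 36, 19 had a mean above 100 FPKM and 4 a mean above 1000 FPKM. Fth1, the ferritin heavy chain that stores iron, was the highest and ranked 5 of all 24346 genes by level. Mt1 ranked 27, Gpx3, a secreted glutathione peroxidase, 33, and Gstm1, a glutathione S-transferase, 48. At the other end, 4 genes lay below 10 FPKM: Gsr, which encodes glutathione reductase, Gsta4, the quinone reductase gene Nqo1, and Slc7a11, the cystine importer that feeds glutathione synthesis. Slc7a11 was the only one of the 36 below the mean of 1 FPKM needed for testing, with 0.240, 0.140, 0.0220 and 0.0951 FPKM in cKO replicates 1 to 4 and 0.205, 0.0346, 0.0589 and 0.0411 FPKM in WT replicates 1 to 4, so 35 genes were tested.

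**Figure D1:**
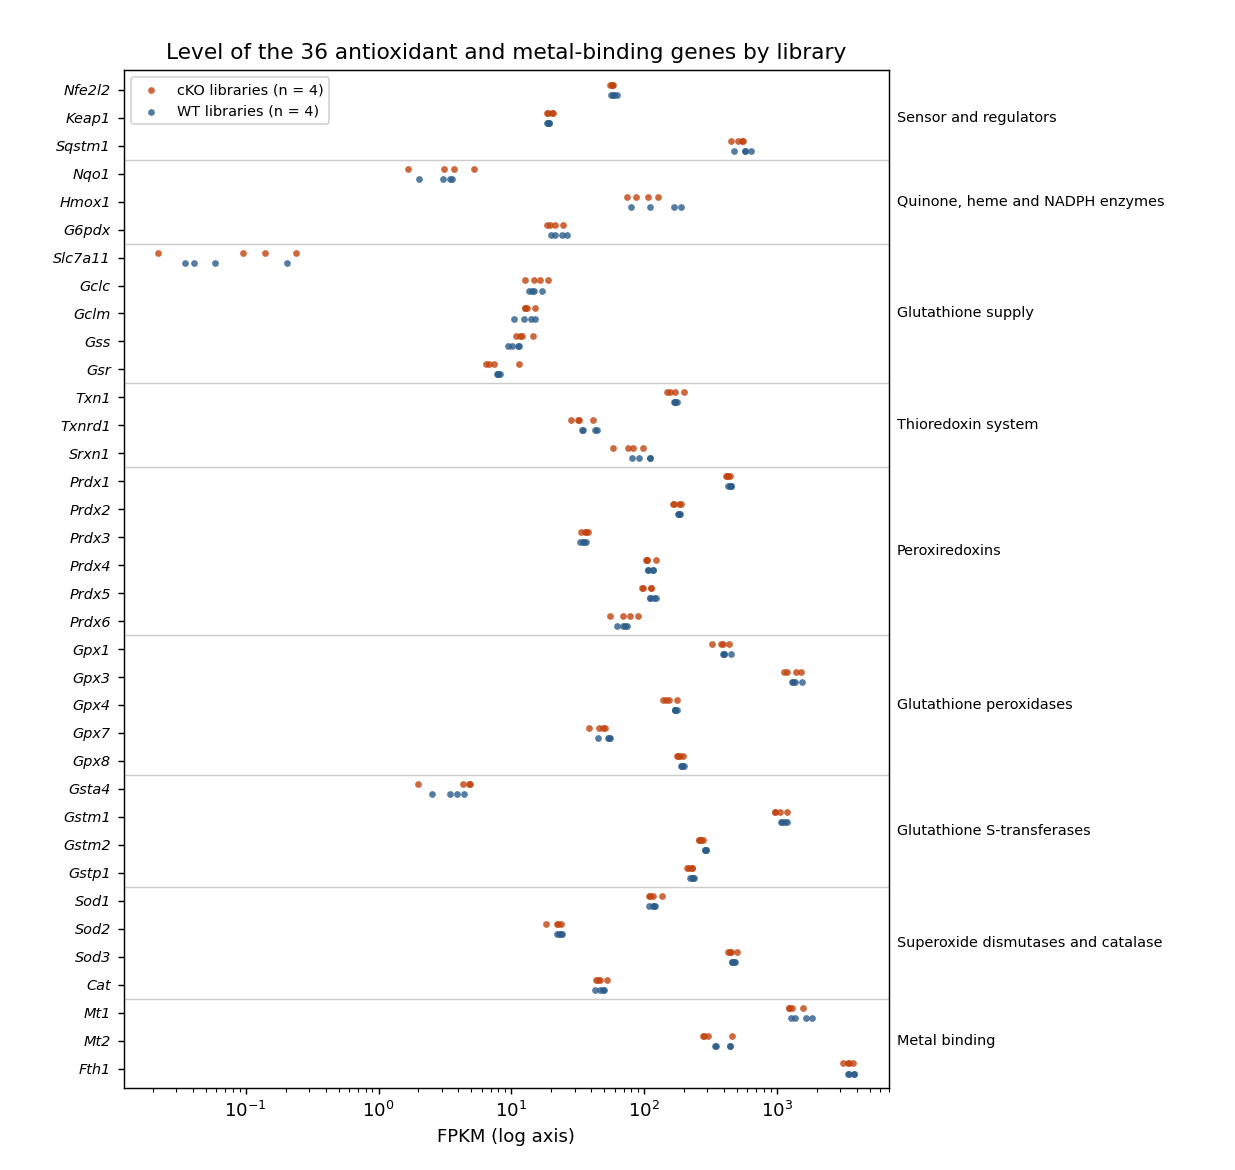
FPKM of the 36 genes in each library on a log axis, 1 row per gene, ordered by role, with cKO libraries above WT libraries in each row. Levels span from Slc7a11 at 0.0220 to 0.240 FPKM to Fth1 at 3163 to 3830 FPKM, and the groups overlap in every row but that of Gstm2.

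None of the 35 tested genes passed the test between cKO and WT stromal cells (limma on log2(FPKM + 1), Benjamini-Hochberg over 11506 genes, called at an adjusted p under 0.05; lowest adjusted p among the members 0.897). The test called 1 of the 11506 genes, or 0.00869%. At an unadjusted p under 0.05, 2 members were lower in cKO (Gstm2 and Gpx4) and 0 were higher, beside 3.03% of all genes lower and 2.37% higher, or 5.41% in either direction. The mean was lower in cKO for 25 of the 35 members and higher for 10. Of all genes tested, 52.6% had a lower mean in cKO. The members were more abundant than most genes, with a median of 110.6 FPKM against 9.66 FPKM over all genes tested. Among genes with a mean of at least 5 FPKM, 25 of 33 members and 56.9% of all genes had a lower mean. That cutoff lies far below the members' median, so the 2 shares are not matched for level. With each library rescaled to the same FPKM sum, 23 of 35 members and 39.4% of all genes had a lower mean, and at an unadjusted p under 0.05 the members counted 0 lower and 1 higher, beside 1.49% of all genes lower and 3.97% higher. The median log2 difference was -0.06 over the members and -0.01 over all genes, and single members ran from -0.41 (Hmox1) to 0.20 (Gss). With quantile normalization the medians were -0.03 and -0.01, and 24 of 35 members and 54.5% of all genes had a lower mean. In the sorted bulk samples, fewer cells of a type and less RNA per cell cannot be told apart.

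**Figure D2:**
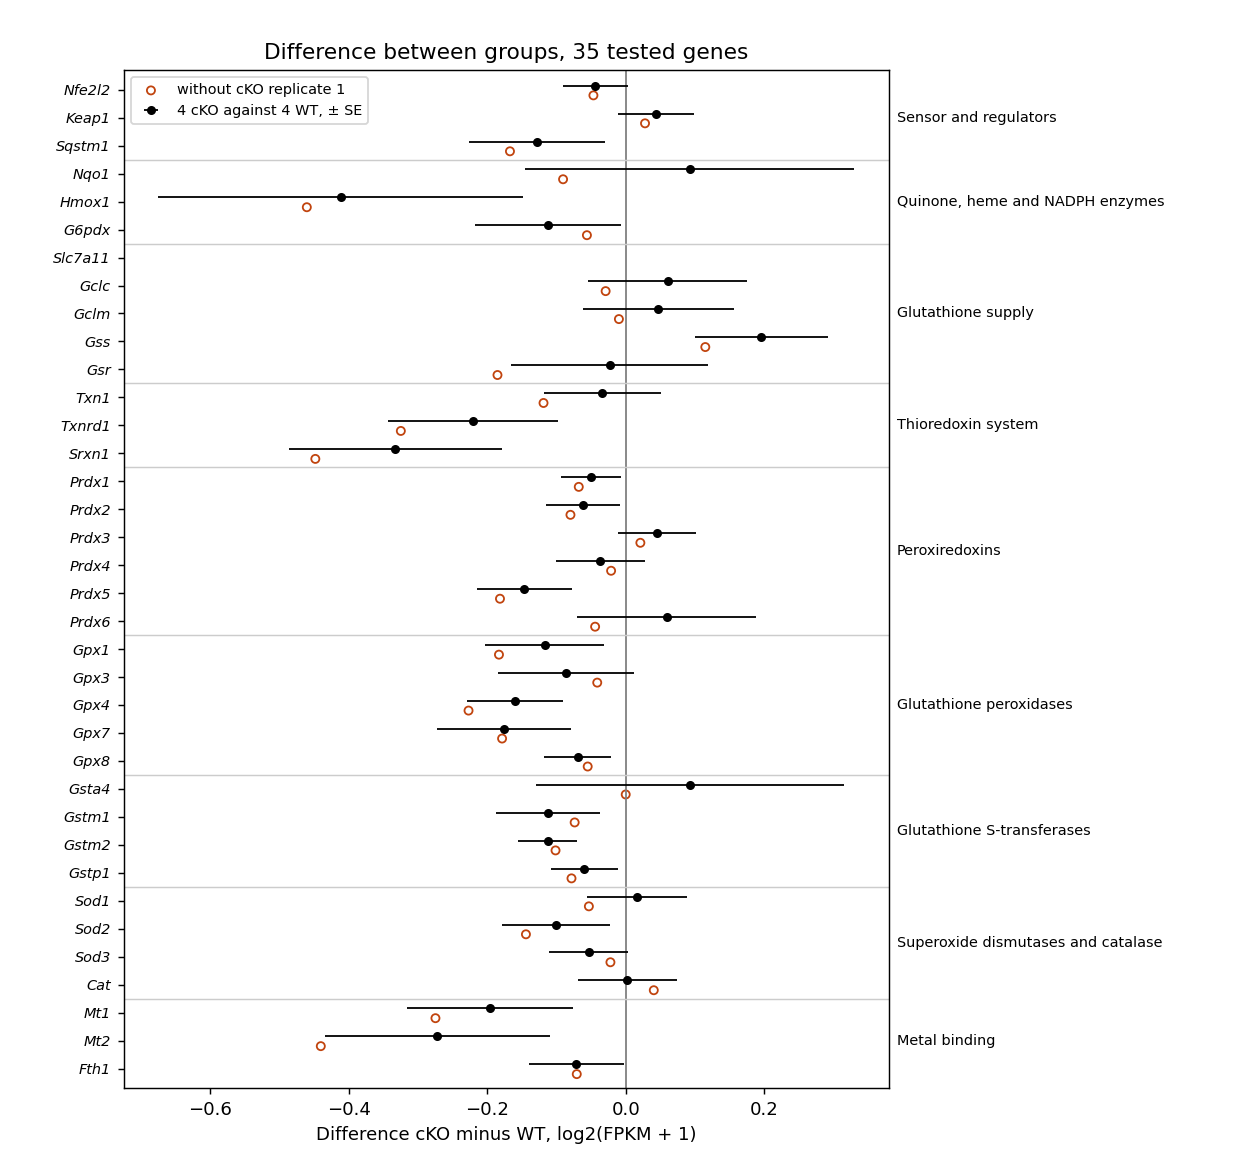
Difference cKO minus WT in log2(FPKM + 1) for the 35 tested genes (points, with the standard error of limma as bars), and the same without cKO replicate 1 (open circles). Hmox1 lies furthest to the left at -0.41 with all libraries, and Mt2 lies at -0.44 without cKO replicate 1 and at -0.27 with all libraries.

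The sensor and its partners had small differences. Nfe2l2 (chromosome 2, 75675513 to 75704641, mm10) had 57.4, 55.5, 58.2 and 57.0 FPKM in cKO replicates 1 to 4, and 62.0, 58.0, 59.2 and 56.3 FPKM in WT replicates 1 to 4. Keap1 (chromosome 9, 21229730 to 21239361) had 20.3, 18.5, 20.8 and 18.9 FPKM in cKO and 19.1, 19.3, 18.9 and 18.7 FPKM in WT. The groups overlapped for both, and the log2 differences were -0.04 (SE 0.05, adjusted p = 0.951) and 0.04 (SE 0.05, adjusted p = 0.960) in limma. Sqstm1 encodes p62, an autophagy receptor that binds KEAP1 and is itself an NRF2 target. It had 557, 546, 506 and 449.7 FPKM in cKO replicates 1 to 4, and 638, 575, 572 and 471 FPKM in WT replicates 1 to 4. Its lowest library in each group was replicate 4, and the groups overlapped (log2 difference -0.13, SE 0.10, adjusted p = 0.929).

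Hmox1, which encodes heme oxygenase 1, had the largest spread within groups of the tested members on the log2(FPKM + 1) scale, which compresses low genes such as Nqo1. It (chromosome 8, 75093621 to 75100589) had 108, 128, 86.9 and 74.6 FPKM in cKO replicates 1 to 4, and 168, 189, 111 and 79.2 FPKM in WT replicates 1 to 4. WT replicate 4 lay below 3 of the cKO libraries, and the spread inside the WT group, 2.39-fold from lowest to highest, was wider than the gap between the group means of 99.2 ± 23.4 FPKM in cKO and 137 ± 50.8 FPKM in WT (SD, n = 4 each; limma log2 difference -0.41, SE 0.26, adjusted p = 0.920). In both groups replicates 1 and 2 were above replicates 3 and 4. Red cells carry heme, the substrate of the enzyme, and the summed FPKM of 5 erythroid markers was 107, 111, 58.8 and 61.3 in cKO replicates 1 to 4 and 181, 120.5, 70.0 and 76.2 in WT replicates 1 to 4. None of the 5 was at 0 in every library. Of these markers, Hba-a1 had 78.5, 61.1, 58.0 and 60.0 FPKM in cKO replicates 1 to 4. In WT replicates 1 to 4 it had 179, 68.6, 43.1 and 57.2 FPKM. Hba-a2 had 27.7 and 48.3 FPKM in cKO replicates 1 and 2 and 49.7 and 26.1 FPKM in WT replicates 2 and 3. In the other libraries Hba-a2 was at most 0.0837 FPKM. Hbb-bs had 18.2 FPKM in WT replicate 4 and at most 0.296 FPKM in the other libraries. Macrophages also make heme oxygenase, and the 12 myeloid markers summed to 182, 96.8, 89.2 and 88.9 FPKM in cKO and to 113, 81.3, 82.8 and 90.3 FPKM in WT, none at 0 in every library. Their part in the Hmox1 values was not tested.

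Nqo1, a reference target of NRF2 in many tissues, was low here. It had 5.20, 1.68, 3.12 and 3.70 FPKM in cKO replicates 1 to 4, and 3.58, 3.06, 3.46 and 2.00 FPKM in WT replicates 1 to 4 (log2 difference 0.09, SE 0.24, adjusted p = 0.985). The cKO libraries bracketed the WT libraries, and without cKO replicate 1 the difference was -0.09. G6pdx, the first enzyme of the NADPH-yielding pentose phosphate pathway, ranged from 18.5 to 24.6 FPKM in cKO and from 19.8 to 26.1 FPKM in WT (log2 difference -0.11, SE 0.11, adjusted p = 0.934).

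In the thioredoxin system, which reduces oxidized proteins with NADPH, all 3 members had lower means in cKO, thioredoxin itself by the least. Srxn1 encodes sulfiredoxin, which repairs overoxidized peroxiredoxins. It (chromosome 2, 152105516 to 152111376) had 98.8, 75.0, 83.1 and 58.6 FPKM in cKO replicates 1 to 4, and 111, 110.5, 92.2 and 81.2 FPKM in WT replicates 1 to 4. cKO replicates 1 and 3 lay above WT replicate 4, so the groups overlapped (log2 difference -0.33, SE 0.15, unadjusted p = 0.0560, adjusted p = 0.897 in limma). Txnrd1, the cytosolic thioredoxin reductase (chromosome 10, 82833951 to 82897712), had 41.4, 32.0, 32.1 and 28.3 FPKM in cKO and 44.3, 42.7, 34.7 and 34.3 FPKM in WT. Here cKO replicate 1 alone reached into the WT range (log2 difference -0.22, SE 0.12, adjusted p = 0.897). Txn1 had 201, 157, 172 and 149 FPKM in cKO and 171, 178, 169 and 172 FPKM in WT. Its cKO libraries lay on both sides of the narrow WT range, and the difference was -0.03 (SE 0.08, adjusted p = 0.983).

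The metallothioneins, which lie next to each other on chromosome 8 (Mt2 at 94172664 to 94173568 and Mt1 at 94179082 to 94180327), also had lower means in cKO. Mt1 had 1566, 1304, 1243 and 1228 FPKM in cKO replicates 1 to 4, and 1827, 1666, 1378 and 1281 FPKM in WT replicates 1 to 4. Mt2 had 459, 301, 277 and 284 FPKM in cKO, and 439, 446, 340.0 and 347 FPKM in WT. In Mt2, cKO replicate 1 was the highest of all 8 libraries and the other 3 cKO libraries were below every WT library. The log2 differences were -0.20 for Mt1 (SE 0.12, adjusted p = 0.903) and -0.27 for Mt2 (SE 0.16, adjusted p = 0.901) in limma. The ratio of Mt1 to Mt2 FPKM averaged 4.14 ± 0.489 in cKO and 3.91 ± 0.231 in WT (SD, n = 4 each), with overlap, and was lowest in cKO replicate 1 at 3.42. Fth1 had 3457, 3761, 3163 and 3489 FPKM in cKO and 3798, 3830.5, 3439 and 3497 FPKM in WT (log2 difference -0.07, SE 0.07, adjusted p = 0.937). Its FPKM ratio to Ftl1, the ferritin light chain, averaged 0.726 ± 0.0281 in cKO and 0.706 ± 0.0194 in WT, and the groups overlapped.

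**Figure D3:**
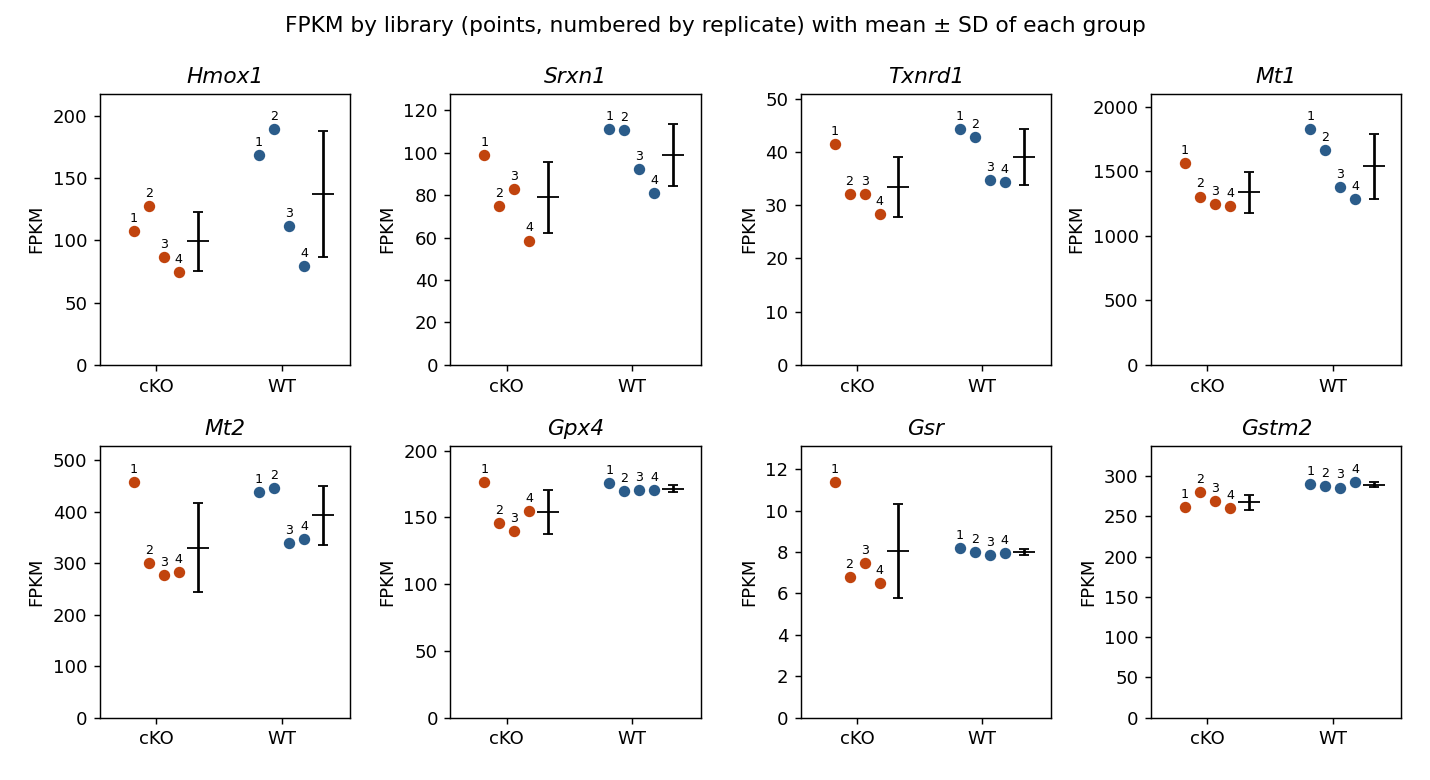
FPKM of Hmox1, Srxn1, Txnrd1, Mt1, Mt2, Gpx4, Gsr and Gstm2 in each library (points with replicate numbers, cKO left of WT), with the mean and SD of the 4 libraries of each group beside them, on axes that start at 0. In Txnrd1, Mt2, Gpx4 and Gsr, cKO replicate 1 is the one cKO library that is not below all WT libraries.

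The family of glutathione peroxidases is named for reducing peroxides with glutathione. All 5 members of it had lower means in cKO, with log2 differences from -0.18 (Gpx7) to -0.07 (Gpx8). Gpx4, which protects membrane lipids and restrains ferroptosis (chromosome 10, 80047166 to 80056439), had 177, 146, 139.5 and 155 FPKM in cKO replicates 1 to 4, and 176, 170.0, 171 and 170.3 FPKM in WT replicates 1 to 4. The WT libraries were tightly grouped, and cKO replicate 1 was above all of them (log2 difference -0.16, SE 0.07, unadjusted p = 0.0452, adjusted p = 0.897). Of the 50-base words in Gpx4 transcripts, 34.7% also occur in transcripts of other genes, chiefly a pseudogene, so its value is uncertain. Gpx3 had 1186, 1529, 1394 and 1135 FPKM in cKO and 1372, 1309, 1537 and 1321 FPKM in WT, with overlap and a difference of -0.09 (SE 0.10, adjusted p = 0.956). Gpx7, a peroxidase of the endoplasmic reticulum, had 46.1, 49.0, 51.0 and 38.3 FPKM in cKO and 55.6, 54.3, 53.4 and 45.1 FPKM in WT (difference -0.18, SE 0.10, adjusted p = 0.897). WT replicate 4 was the only WT library inside the cKO range. The cytosolic Gpx1 ranged from 324 to 436 FPKM in cKO and from 394 to 452 FPKM in WT, and Gpx8, of the endoplasmic reticulum, from 175 to 196 FPKM in cKO and from 189.7 to 198 FPKM in WT.

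Glutathione S-transferases attach glutathione to electrophiles. Gstm2 (chromosome 3, 107981702 to 107986453) was the 1 member whose groups did not overlap, beside 1.9% of all genes with every cKO library below every WT library, 1.36% with every cKO library above and 3.26% in either direction. It had 261, 279.6, 269 and 260.3 FPKM in cKO replicates 1 to 4, and 290.2, 288, 286 and 293 FPKM in WT replicates 1 to 4. The means were 267 ± 9.01 FPKM in cKO and 289 ± 3.12 FPKM in WT (SD, n = 4 each), and the gap did not pass over all genes (log2 difference -0.11, SE 0.04, unadjusted p = 0.0244, adjusted p = 0.897 in limma). Its neighbour Gstm1 had 960, 1193, 969 and 1053 FPKM in cKO and 1188, 1148, 1099 and 1065 FPKM in WT. There the groups overlapped, at the same log2 difference of -0.11 (SE 0.08, adjusted p = 0.922). Gstp1 ranged from 209.5 to 230.1 FPKM in cKO and from 223 to 239 FPKM in WT, and Gsta4, which clears lipid aldehydes, from 1.97 to 4.84 FPKM in cKO and from 2.53 to 4.42 FPKM in WT. The words shared with other genes' transcripts came to 33.7% for Gstp1 (chiefly Gstp2), 18.9% for Gstm1 and 5.65% for Gstm2, so these values are uncertain too.

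The genes of glutathione supply were the one group with mostly higher means in cKO, 3 of the 4 tested. Gss encodes glutathione synthetase, the last step of synthesis. It had 14.6, 12.1, 10.8 and 11.6 FPKM in cKO replicates 1 to 4, and 11.2, 11.5, 10.1 and 9.49 FPKM in WT replicates 1 to 4 (log2 difference 0.20, SE 0.10, unadjusted p = 0.0702, adjusted p = 0.897). The groups overlapped, and the difference was 0.11 without cKO replicate 1. Gclc and Gclm encode the catalytic and modifier subunits of the rate-limiting ligase. Gclc had 18.9, 16.4, 14.9 and 12.6 FPKM in cKO and 14.3, 17.1, 13.5 and 14.8 FPKM in WT. Gclm had 15.2, 12.6, 13.1 and 12.7 FPKM in cKO and 15.1, 12.5, 14.2 and 10.4 FPKM in WT. Both overlapped widely, with differences of 0.06 (SE 0.12, adjusted p = 0.977) and 0.05 (SE 0.11, adjusted p = 0.983), and both turned to the other sign without cKO replicate 1 (-0.03 and -0.01). Gsr, which regenerates glutathione, had 11.4, 6.82, 7.47 and 6.50 FPKM in cKO and 8.20, 8.0, 7.85 and 7.96 FPKM in WT. cKO replicate 1 lay above all WT libraries and the other 3 cKO libraries below them (difference -0.02, SE 0.14, adjusted p = 0.994; -0.19 without cKO replicate 1, adjusted p = 0.672).

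Peroxiredoxins are abundant thiol peroxidases, and 4 of the 6 had lower means in cKO. Prdx1, the highest of them, had 443, 421, 431 and 414 FPKM in cKO replicates 1 to 4, and 451, 449.7, 429 and 441 FPKM in WT replicates 1 to 4 (difference -0.05, SE 0.04, adjusted p = 0.931). All libraries lay within a narrow band, and 8.29% of its 50-base words occur in other genes' transcripts. Prdx5, a mitochondrial and peroxisomal member, had 113, 98.8, 113 and 95.7 FPKM in cKO and 111, 124, 112 and 119 FPKM in WT (difference -0.15, SE 0.07, unadjusted p = 0.0590, adjusted p = 0.897). A pair of cKO libraries lay below the WT range and the other pair inside it. Prdx2, Prdx3, Prdx4 and Prdx6 differed by -0.06 to 0.06. Prdx6 had the widest spread of these, at 55.1 to 89.8 FPKM in cKO and 62.8 to 74.7 FPKM in WT.

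Superoxide dismutases turn superoxide into hydrogen peroxide, which catalase breaks down. Sod3, the extracellular enzyme and the highest of the 3, had 425, 500.4, 451 and 439.9 FPKM in cKO replicates 1 to 4, and 458, 479, 462 and 482 FPKM in WT replicates 1 to 4 (difference -0.05, SE 0.06, adjusted p = 0.951). The cytosolic Sod1 ranged from 109 to 136 FPKM in cKO and from 109.7 to 121 FPKM in WT, the mitochondrial Sod2 from 18.4 to 23.7 FPKM in cKO and from 22.1 to 24.3 FPKM in WT, and Cat from 43.2 to 52.6 FPKM in cKO and from 43.0 to 49.7 FPKM in WT. The groups overlapped for all 4, with differences from -0.10 (Sod2) to 0.02 (Sod1). For Sod2, 21.0% of the 50-base words occur in other genes' transcripts.

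cKO replicate 1, the library with the most epithelial transcripts, held the highest value of all 8 libraries for 13 of the 36 members, while 17.5% of all genes tested peaked there. These were Nqo1, Slc7a11, Gclc, Gclm, Gss, Gsr, Txn1, Prdx3, Prdx6, Gpx4, Gsta4, Sod1 and Mt2. Gpx2, the glutathione peroxidase of gut epithelium and not among the 36, had 32.7, 2.50, 1.26 and 0.682 FPKM in cKO replicates 1 to 4 and 3.39, 1.95, 2.64 and 1.23 FPKM in WT replicates 1 to 4. The part of epithelial cells in the member values was not tested. cKO replicate 2, at 560.2 FPKM of epithelial markers against at most 143 FPKM in WT, stays in the fit without cKO replicate 1. Without cKO replicate 1, 31 of the 35 tested members had a lower mean in cKO (50% of all genes) and 9 were lower at an unadjusted p under 0.05 (4.14% of all genes lower and 2.63% higher), namely Gpx4, Mt2, Srxn1, Txnrd1, Gsr, Prdx5, Gstm2, Gpx1 and Mt1. In 6 of the 35, Gsr, Txnrd1, Gpx1, Gpx4, Gstm2 and Mt2, the 3 remaining cKO libraries were all below the 4 WT libraries, beside 4.24% of all genes, and 3.2% of all genes had them all above. The differences were then -0.23 for Gpx4 (limma adjusted p = 0.387, the lowest), -0.44 for Mt2 (adjusted p = 0.442), -0.45 for Srxn1 and -0.33 for Txnrd1 (adjusted p = 0.645 each), and no member was called, while 4 genes were called overall. With all 8 libraries and the mean of the epithelial markers as a covariate, the differences were -0.21, -0.45, -0.48 and -0.35 in that order. That covariate is largest in cKO replicate 1, so this fit is not independent of leaving that library out.

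At the other end, cKO replicate 4 held the lowest value of all 8 libraries for 18 of the 36 members. Of all genes tested, 13.7% were lowest there. Its FPKM summed over all genes was also the lowest, at 464037 against 477545 to 491789 in the other libraries. The part of this lower sum in the member counts was not tested. The 4 WT libraries held the lowest value for 0, 0, 1 and 3 members. Without cKO replicate 4, 23 of 35 members had a lower mean in cKO, 0 were lower at an unadjusted p under 0.05 in limma, and the median difference was -0.04, beside 53.5% of all genes with a lower mean and 2.49% lower at that p. Inside the WT group, replicates 1 and 2 both lay above replicates 3 and 4 for 14 of the 35 tested members (17.4% of all genes), Hmox1, Srxn1, Txnrd1, Sqstm1, Mt1 and Mt2 among them. In the cKO group the same split held for 9 of 35 (16.3% of all genes), and in both groups for 5 of 35 (3.09% of all genes). The residual SD of log2(FPKM + 1) measures the spread between libraries of a group. With 1 library per mouse, it does not separate differences between mice from those of sorting or measurement. Over tested members it ran from 0.0357 for Gstm2 to 0.469 for Hmox1, with a median of 0.136 over the members and 0.128 over all genes tested.

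**Figure D4:**
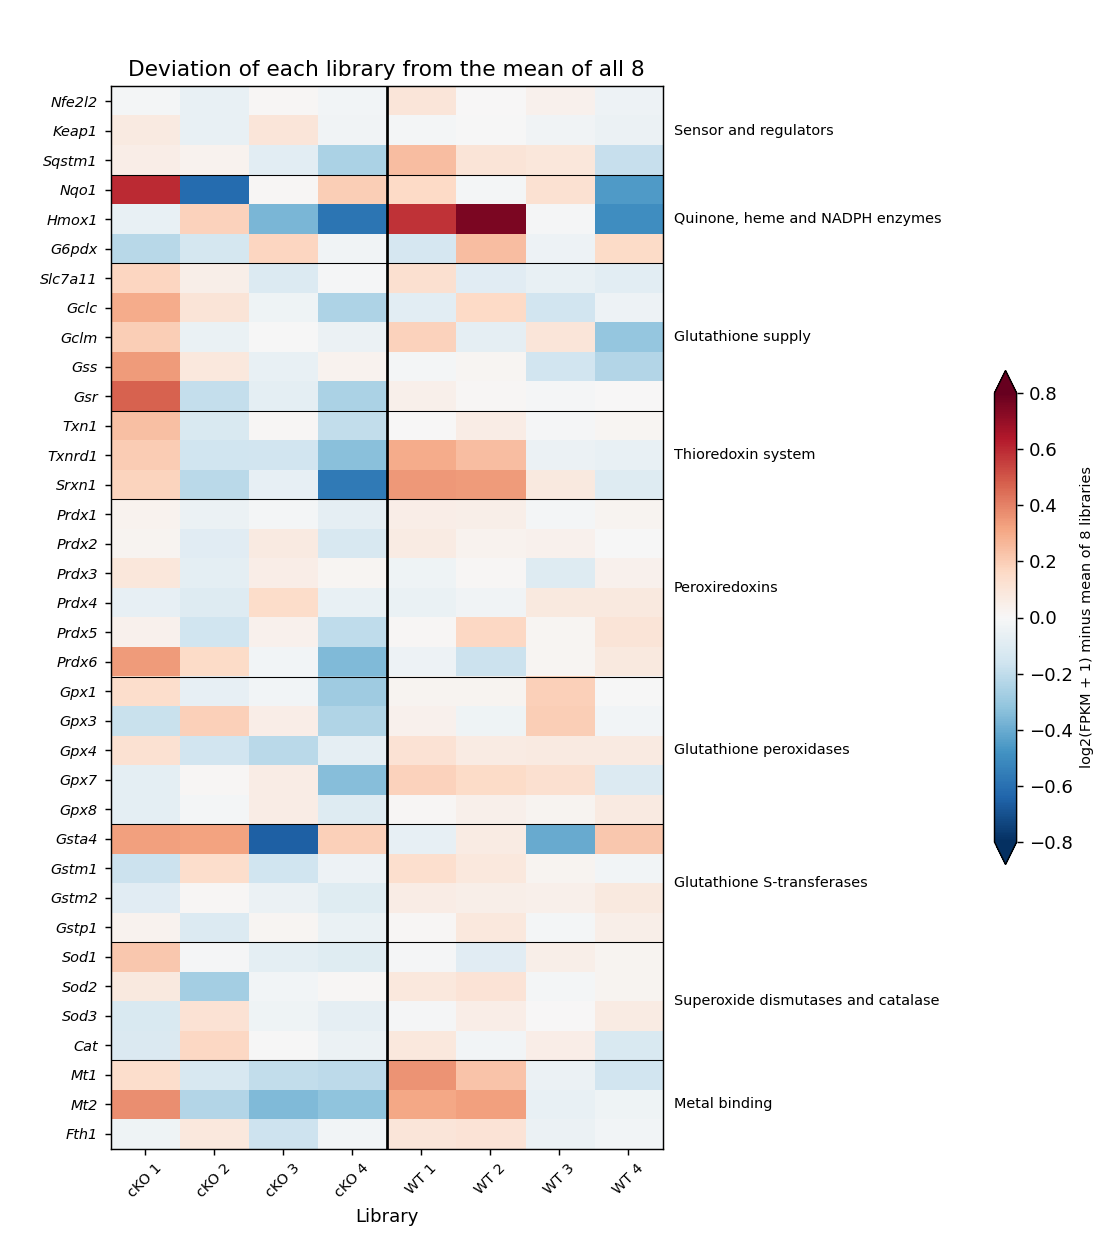
Deviation of each library (columns, cKO left of WT) from the mean of all 8 in log2(FPKM + 1) for the 36 genes (rows, by role), red above and blue below the mean. The blue column of cKO replicate 4, lowest for 18 of the 36, and the red cells of cKO replicate 1 in glutathione supply and of WT replicates 1 and 2 in Hmox1, Srxn1, Txnrd1, Mt1 and Mt2 stand out.

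The wider pathway, 84 further genes of NRF2 control, NADPH supply, glutathione use, thiol repair and metal transport, also held no called gene. Of the 76 that could be tested, 0 were called, beside 0.00869% of all genes. The mean was lower in cKO for 43 and higher for 33, beside 52.6% of all genes lower. The median difference was -0.02, and -0.01 over all genes. At an unadjusted p under 0.05, 2 were lower and 0 higher (limma), beside 3.03% of all genes lower and 2.37% higher. The groups did not overlap for 1 of the 76, with cKO lower, beside 1.9% of all genes in that direction. Gstk1, a mitochondrial and peroxisomal glutathione transferase, had 15.3, 14.8, 12.9 and 14.96 FPKM in cKO and 15.7, 17.0, 16.3 and 17.6 FPKM in WT, without overlap (difference -0.19, SE 0.07, adjusted p = 0.897). Slc11a2, an iron importer, had 10.98, 10.5, 9.505 and 10.3 FPKM in cKO and 13.6, 13.2, 10.4 and 11.1 FPKM in WT. Gstm7, another glutathione transferase, had 2.01, 1.96, 2.11 and 2.53 FPKM in cKO and 2.86, 2.66, 2.22 and 4.04 FPKM in WT. In both genes 1 WT library lay inside the cKO range. Cyba, a subunit of the superoxide-making NADPH oxidases, had 178, 186, 151 and 160.4 FPKM in cKO and 187, 188, 186 and 182 FPKM in WT. Selenow, a small selenoprotein, had 302, 267, 268 and 262 FPKM in cKO and 293, 302, 289 and 309.6 FPKM in WT. For these 4 genes the groups overlapped, and the differences ran from -0.31 to -0.12 (adjusted p = 0.897 each).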

How the data were processed

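RNA from sorted stromal cells of 8 mice (4 cKO, 4 WT) was measured, 1 library per mouse; groups and replicate numbers come from the titles. The authors deposited 1 table of FPKM values for each library, per the file headers. The submitters' processing notes name Cufflinks 2.2.1 and Cuffdiff, SAMtools 0.1.18, TopHat2 2.1.1, Bowtie2 2.3.5.1 and the build mm10. For settings and annotation, the sources used here give nothing. FPKM divides by length and by the library's fragments, so genes that take a larger share lower all others.

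The 36 members, the gene lists and the tests were chosen with earlier results of these data known. Genes with a mean of at least 1 FPKM over the 8 libraries (11506) were tested on log2(FPKM + 1), a scale that understates changes of low genes, with limma 3.58.1 in R 4.3.3 (eBayes with trend, 2 groups), called at a Benjamini-Hochberg adjusted p under 0.05. The procedure was tested on simulated data with 200 changed genes. Values per library are given for the 10 members with the smallest unadjusted p, the regulators and standard targets, and the highest member of each role; of the wider list, the 5 smallest p. Gpx2, Ftl1 and the ranges of other members were added after their values were seen. No label says that the replicate numbers pair the mice, so no block was used in the main fit. Alternatives were other pseudocounts, filters, scalings, eBayes settings, array weights, the replicate block, an epithelial covariate, and each library left out. Python 3.11.15 with numpy 2.4.6, pandas 2.3.3 and matplotlib 3.10.9 gave tables, 50-base word counts from GENCODE transcripts, gene positions (GENCODE, GRCm38, the same build as mm10), motif counts and plots. Selenow is listed in the files under its older symbol Sepw1.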

Additional observations from a re-analysis of the deposited data

Results flagged for a closer look

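Of 88 sets of 4 values examined, 6 held a library far from the other 3 of its group, where chance flags about 1 in 20. Among the members these were 5 of 72 sets. Mt2 in cKO replicate 1 was at 459 FPKM, against 277 to 301 FPKM in the other cKO libraries. The myeloid markers summed to 182 FPKM in cKO replicate 1, against 88.9 to 96.8 FPKM in the other cKO libraries. Prdx4, a peroxiredoxin of the endoplasmic reticulum, was at 122 FPKM in cKO replicate 3, against 103 to 106 FPKM in the other cKO libraries. Gpx1 was at 452 FPKM in WT replicate 3, against 394 to 402 FPKM in the other WT libraries. Gpx4 was at 176 FPKM in WT replicate 1, against 170.0 to 171 FPKM in the other WT libraries, a narrow range. Slc7a11 was at 0.205 FPKM in WT replicate 1, against 0.0346 to 0.0589 FPKM in the other WT libraries, at a level where few fragments set the value.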

How the results depend on the processing

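No member was called under any of the 20 alternatives (lowest adjusted p 0.387, Gpx4 without cKO replicate 1), and the count of members with a lower cKO mean stayed between 23 and 31. The count of members lower at an unadjusted p under 0.05, 2 in the main analysis, was 0 with quantile normalization (2.9% of all genes lower in the same fit), 0 with rescaling to the same sum (1.49%), 0 without the mean-variance trend (2.66%), 1 with median-of-ratios scaling (2.64%), 5 with array weights (3.94%) and 8 with the epithelium covariate (4.06%). Rescaling to the same sum gave 1 higher member (3.97% of all genes). Leaving out each library in turn gave 0 to 9 lower members, with 9 without cKO replicate 1 (4.14% of all genes), 5 without WT replicate 4 (3.3%), 0 without cKO replicate 4 (2.49%) or WT replicate 1 (2.2%) and 1 without WT replicate 2 (2.02%) or 3 (2.55%), and 0 to 1 higher members, the 1 without cKO replicate 3 (2.64%). It gave 1 to 4 called genes over all genes (4 without cKO replicate 1, 2 without cKO replicate 2, 3 without WT replicate 3). The cause of these changes was not tested.

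With the replicate number as a block, 8 members were lower and 1 higher at an unadjusted p under 0.05 (2.79% and 2.56% of all genes), 0 were called, and 1 gene was called overall. Deviations of same-numbered libraries correlated at 0.0912, 0.0336, 0.0190 and 0.0182, and those of other pairs at -0.123 to 0.131. cKO replicate 2 correlated best with WT replicate 1. Correlations this small cannot exclude pairing. No label pairs the mice, so the numbers were not taken to pair them.

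Of 698 member values under the alternatives, 672 kept their direction and 26 took the other sign, in 10 members whose main differences lay between -0.05 and 0.09. Outside the left-out libraries these were Prdx1 with quantile normalization (0.027), Gsr (0.0074) and Txn1 (0.00092) with rescaling to the same sum, Gsta4 (-0.0045) and Sod1 (-0.019) with array weights, and Gclc (-0.074), Prdx6 (-0.10), Gsta4 (-0.057) and Sod1 (-0.056) with the epithelium covariate. With each library left out in turn, the ranges were -0.053 to 0.040 for Cat, -0.029 to 0.15 for Gclc, -0.049 to 0.12 for Gclm, -0.19 to 0.057 for Gsr, -0.025 to 0.33 for Gsta4, -0.091 to 0.31 for Nqo1, -0.045 to 0.19 for Prdx6, -0.054 to 0.051 for Sod1 and -0.12 to 0.025 for Txn1. No fragment counts were used, so counting error cannot be given, and 4 mice per group limit what could be called. Genes with shared sequence (Gpx4, Gstp1, Gstm1, Sod2) are uncertain in level.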
